A study of Homo sapiens with 12 samples.

Results

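Estradiol was compared with vehicle in 231BR cells that were cultured with mouse astrocytes. The samples were chosen by their treatment labels, and 6 of the 12 arrays of the series belong to this comparison, 3 with estradiol and 3 with vehicle. 231BR is a line derived from the human breast cancer line MDA-MB-231 for its growth in brain, and the cells of every group carried EGFP. Estradiol was given at 10 nM, the vehicle groups are labelled OH, and the EGFP-positive cells were sorted from the astrocytes after 24 h of shared culture. The other 6 arrays come from the same cells without astrocytes, 3 with estradiol and 3 with vehicle, and they enter the estimate of each gene's spread, the choice of probe set and the bins by level, and show below where the astrocyte cultures differed. By its title the series asks what estrogen does to the tumour cells by way of astrocytes that have the estrogen receptor. 231BR is a single derived line. The sources used here give neither the strain, age or purity of the mouse astrocytes nor what a replicate is. If replicates shared a culture, the p-values reflect technical spread only.

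Estradiol acts on cells mainly through the nuclear estrogen receptors alpha and beta, which bind DNA at estrogen response elements, and through the membrane receptor GPER1. Cells of the MDA-MB-231 lineage are a standard model of breast cancer without estrogen receptor alpha, and they depend strongly on the epidermal growth factor receptor and the RAS-ERK kinase cascade below it. Astrocytes have estrogen receptors and release growth factors and cytokines, so the hormone may also act on tumour cells indirectly, by what astrocytes release. S100A4, a calcium-binding protein of migrating and metastatic cells, is a well-known marker of aggressive breast cancer.

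Signals are log2 values of Affymetrix Human Gene ST arrays, and a difference of 1 on this scale is a doubling. After reduction to 1 probe set per gene, 17936 genes were compared. VIM, the mesenchymal filament gene, lay between 9.55 and 10.44, CD44 between 7.68 and 9.32, and the epithelial cadherin gene CDH1 between 3.55 and 4.38. EPCAM, an epithelial adhesion gene, lay between 4.29 and 5.97, and the simple epithelial keratin gene KRT8, looked up after its values were seen, between 9.13 and 10.61. GATA3, a luminal breast marker, lay between 4.53 and 5.19 and ESR1 between 3.63 and 5.09, around the array medians of 4.49 to 4.77, so these signals do not show whether either is absent. Replicate 2 of estradiol with astrocytes stood apart from the other arrays. Its SD across genes was 1.26, against 1.49 to 1.85 on the other 5 arrays with astrocytes. Across genes it correlated with those 5 arrays at r from 0.681 to 0.854, whereas they correlated with each other at 0.912 to 0.985. Where leaving out replicate 2 of both groups moved a difference or a list median described below by over 1.5 times, the value without it is given.

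No gene passed the test. Of 17936 genes, 0 (0%) had an adjusted p under 0.05 in limma with Benjamini-Hochberg adjustment, and 142 (0.792%) had an unadjusted p under 0.05, 87 higher (0.485%) and 55 lower (0.307%) with estradiol. When the 6 arrays were fitted alone, 11 had an unadjusted p under 0.05. UGT2B7 had the smallest adjusted p, 0.215, and that of every other gene was 0.99976 or more. The 3 estradiol arrays lay entirely above the 3 vehicle arrays for 245 genes (1.37%) and entirely below them for 147 (0.82%), together 392 genes (2.19%). In cells without astrocytes 348 genes (1.94%) were apart with estradiol above and 228 (1.27%) with it below, together 576 (3.21%), with 0 genes (0%) adjusted and 1 gene (0.00558%) unadjusted under 0.05. With 3 arrays a group the smallest two-sided p of an exact permutation test is 0.1, which every gene with groups apart reaches.

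The sizes of the differences were larger with astrocytes than without, and they did not repeat between replicates. The SD of the log2 differences across genes was 0.266 with astrocytes and 0.110 without, and no gene without astrocytes differed by 1 or more. With astrocytes 11 genes did, 2 higher and 9 lower, but for only 1 of them, UGT2B7, were the groups apart. Taken by replicate number, the differences of replicate 2 had an SD of 0.775 across genes, against 0.317 for replicate 1 and 0.310 for replicate 3. Across genes the differences correlated at r = −0.168 between replicates 1 and 2, 0.0052 between 1 and 3 and −0.165 between 2 and 3. Genes are not independent replicates, and the arrays of a pair share their level. The median over all genes was 0.0033, with quartiles of −0.18 and 0.17, and 50.5% of genes were above 0 and 49.5% below.

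In replicate 2 the difference followed the level of the gene. Genes were put in 20 bins by their mean signal in vehicle without astrocytes, arrays that belong to neither of the groups compared. In replicate 2 the median difference was 0.33 in the bin of lowest signal, 0.46 in the fifth bin and −1.23 in the bin of highest signal. Over the same bins it stayed between −0.054 and 0.14 in replicate 1 and between −0.069 and 0.065 in replicate 3. The correlation of difference with level across genes was −0.678 in replicate 2, 0.180 in replicate 1 and 0.104 in replicate 3. Strongly expressed genes therefore have a negative mean difference, and weak ones a positive mean difference, that replicate 2 alone supplies.

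**Figure D1:**
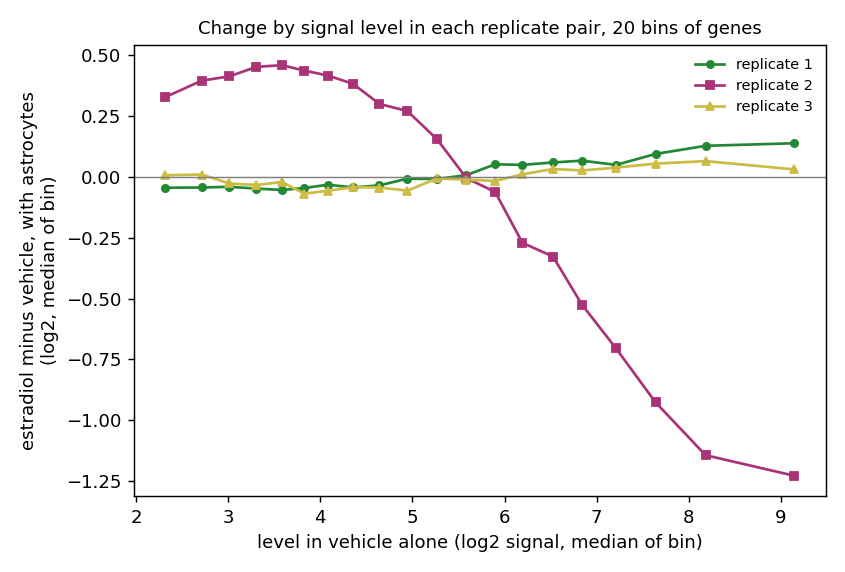
Median log2 difference, estradiol minus vehicle with astrocytes, in 20 bins of genes ordered by their log2 signal in vehicle without astrocytes, with 1 line for each replicate number. The line of replicate 2 runs from 0.33 in the lowest bin to −1.23 in the highest, whereas the other lines stay between −0.069 and 0.14.

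UGT2B7 had the largest positive difference and the smallest p. It encodes a UDP-glucuronosyltransferase, an enzyme that joins glucuronic acid to steroids, estrogens among them, and to drugs, and so prepares them for excretion. Its probe set, 8100758 on chromosome 4, had log2 signals of 4.14, 3.91 and 3.81 in the estradiol arrays, replicates 1 to 3, and of 2.35, 2.66 and 2.13 in the vehicle arrays. Every estradiol array was more than 1 log2 unit above every vehicle array. The mean was 3.95 ± 0.17 (SD, n = 3) against 2.38 ± 0.27 (SD, n = 3), a difference of 1.58 (SE 0.22; 95% interval 1.10 to 2.05) or 2.98-fold. The p in limma was 1.2e-05 unadjusted and 0.215 adjusted. Both means were below the array medians, and the vehicle mean was near 2.32, the median level of the lowest of 20 bins of genes, so detection with vehicle is not shown and the fold rests on that low signal. Without replicate 2 of both groups the difference was 1.74 (SE 0.22, adjusted p in limma 0.233). Adding the array SD as covariate to the fit of 12 arrays gave a difference of 1.56 (SE 0.18) and an adjusted p in limma of 0.0156, and UGT2B7 was then the only gene called. The paired fit of the 6 arrays gave an adjusted p in limma of 0.99949, and the same arrays fitted without pairs gave 0.99983.

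The second probe set of UGT2B7, 8095395, did not show this difference. It read 2.30, 3.19 and 2.82 with estradiol and 2.37, 2.61 and 2.71 with vehicle, a difference of 0.20 (SE 0.23, unadjusted p in limma 0.395). The groups overlapped there, and the mean of both probe sets differed by 0.89. Other UGT2 genes, looked up after the values of UGT2B7 were seen, were closer to 0, and their groups overlapped. The differences were 0.45 (SE 0.27) for UGT2B4, 0.36 (SE 0.24) for UGT2A3, 0.32 (SE 0.24) for UGT2B10, 0.25 (SE 0.31) for UGT2B17 and 0.12 (SE 0.18) for UGT2B28. In the same order they were 0.10, 0.12, 0.018, −0.13 and 0.28 without replicate 2 of both groups. These genes are close copies of each other in 1 cluster on chromosome 4, and probes of a family of this kind can bind more than 1 member, so the identity of the transcript behind probe set 8100758 is uncertain.

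S100A4 (probe set 7920271, chromosome 1) was among the 12 genes with the smallest p in the positive direction and is among the 6 genes followed in every comparison. Its log2 signals were 5.29, 6.29 and 5.56 with estradiol and 4.78, 4.87 and 4.995 with vehicle. The vehicle arrays lay within 0.3 of each other, and all 3 estradiol arrays lay above them, replicate 2 the farthest. The mean was 5.71 ± 0.52 (SD, n = 3) against 4.88 ± 0.11 (SD, n = 3), a difference of 0.83 (SE 0.24; 95% interval 0.29 to 1.36) or 1.78-fold, with an unadjusted p of 0.0056 and an adjusted p of 0.99976 in limma. By replicate the difference was 0.50, 1.42 and 0.56. Without replicate 2 of both groups it was 0.53 (SE 0.18), and without the estradiol array of that number alone 0.54, more than 1.5 times smaller.

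The promoters of these leading genes were searched for the estrogen response element, the DNA site of the nuclear estrogen receptors, and for the AP-1 site. The sequences are the 250 bases before the RefSeq start in GRCh38.p14, 5′ to 3′ on the strand of the gene. UGT2B7 lies on the plus strand, with this window at chr4:69096224-69096473, and S100A4 on the minus strand, at chr1:153545807-153546056. The UGT2B7 window lies inside the annotated span of the gene, chr4:69051375-69112987, so the sequence before the outer start was not searched. Capitals mark a match to a single arm of the response element.
UGT2B7: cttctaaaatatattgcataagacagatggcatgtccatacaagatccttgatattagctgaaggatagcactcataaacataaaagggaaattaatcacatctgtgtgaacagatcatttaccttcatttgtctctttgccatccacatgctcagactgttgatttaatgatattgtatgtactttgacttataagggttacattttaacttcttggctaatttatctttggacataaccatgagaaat
S100A4: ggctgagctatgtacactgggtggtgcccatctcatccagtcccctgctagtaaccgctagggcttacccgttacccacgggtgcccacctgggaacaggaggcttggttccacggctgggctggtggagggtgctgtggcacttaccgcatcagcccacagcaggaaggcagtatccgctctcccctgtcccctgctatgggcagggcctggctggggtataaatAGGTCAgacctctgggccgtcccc
The palindrome GGTCANNNTGACC was in neither promoter. The single arm AGGTCA was found once in that of S100A4, from 24 to 19 bases before the start, and not in that of UGT2B7. The AP-1 site TGANTCA was in neither. Both strands were searched. Of 35116 RefSeq promoters of this length, 0.0399% held the palindrome, 12.1% the single arm and 6.57% the AP-1 site, and a match is a description of the letters only.

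Among the other genes with the smallest p and groups apart, 10 more were higher with estradiol. OCEL1, a gene with an occludin-like domain, had log2 signals of 6.97, 6.82 and 6.92 with estradiol against 6.14, 6.44 and 6.41 with vehicle, a difference of 0.57 (SE 0.17). NHLRC1, which encodes the ubiquitin ligase malin of glycogen metabolism, read 3.90, 4.005 and 4.04 against 3.09, 3.67 and 3.38, a difference of 0.60 (SE 0.19). PTCHD3 read 3.11, 3.70 and 3.56 against 2.80, 2.88 and 2.48, a difference of 0.74 (SE 0.21). For CPN1, the catalytic subunit of carboxypeptidase N, replicate 1 barely differed, with 3.42, 4.29 and 4.05 against 3.29, 3.20 and 3.07 and a difference of 0.73 (SE 0.23). LHX5, a homeobox gene of the developing forebrain, differed by 0.67, the adhesion receptor gene CD226 of lymphocytes by 0.64 and the anion exchanger gene SLC26A6 by 0.73, or 0.40 without replicate 2. CIART, a repressor in the circadian clock, differed by 0.58 (0.35 without replicate 2), the minor spliceosome gene ZRSR2 by 0.57 and the methyltransferase gene METTL22 by 0.56. These 12 genes, UGT2B7 and S100A4 included, were chosen with their groups apart, so leaving arrays out cannot change their sign. Without replicate 2 of both groups they ranged from 0.35 to 1.74.

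The 12 genes of the other direction had smaller differences, from −0.80 to −0.44. CDK11B, a cyclin-dependent kinase gene of transcription and splicing, read 6.30, 5.79 and 6.02 with estradiol and 7.09, 6.95 and 6.36 with vehicle, a difference of −0.76 (SE 0.22). CDK11A is a near-identical neighbour, so this signal may belong to either. RAD52, a gene of homologous recombination, read 4.56, 4.85 and 5.23 against 5.45, 5.50 and 5.73, a difference of −0.68 (SE 0.21), and the groups lay close together without overlap. ARID4B, a chromatin gene, read 4.45, 3.95 and 3.97 against 5.24, 4.66 and 4.53, a difference of −0.69 (SE 0.26). KLF4, a transcription factor of differentiation and early response, read 4.29, 4.04 and 4.01 against 4.54, 4.77 and 4.55, a difference of −0.51 (SE 0.21). ZBTB1 had the largest difference, −0.80 (SE 0.32), of which replicate 2 supplied the most, at −1.51 against −0.25 and −0.65 in the others, and it was at −0.45 without replicate 2. The remaining members were MGC70870 (−0.76), PTPN7 (−0.57), GFER (−0.57), POU3F4 (−0.53), ZNF397 (−0.51), TTC31 (−0.45) and TMEM129 (−0.44). Without replicate 2 of both groups the 12 ranged from −0.80 to −0.37, and their sign could not change because they were chosen with groups apart. None of these 24 genes passed the adjusted threshold.

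**Figure D2:**
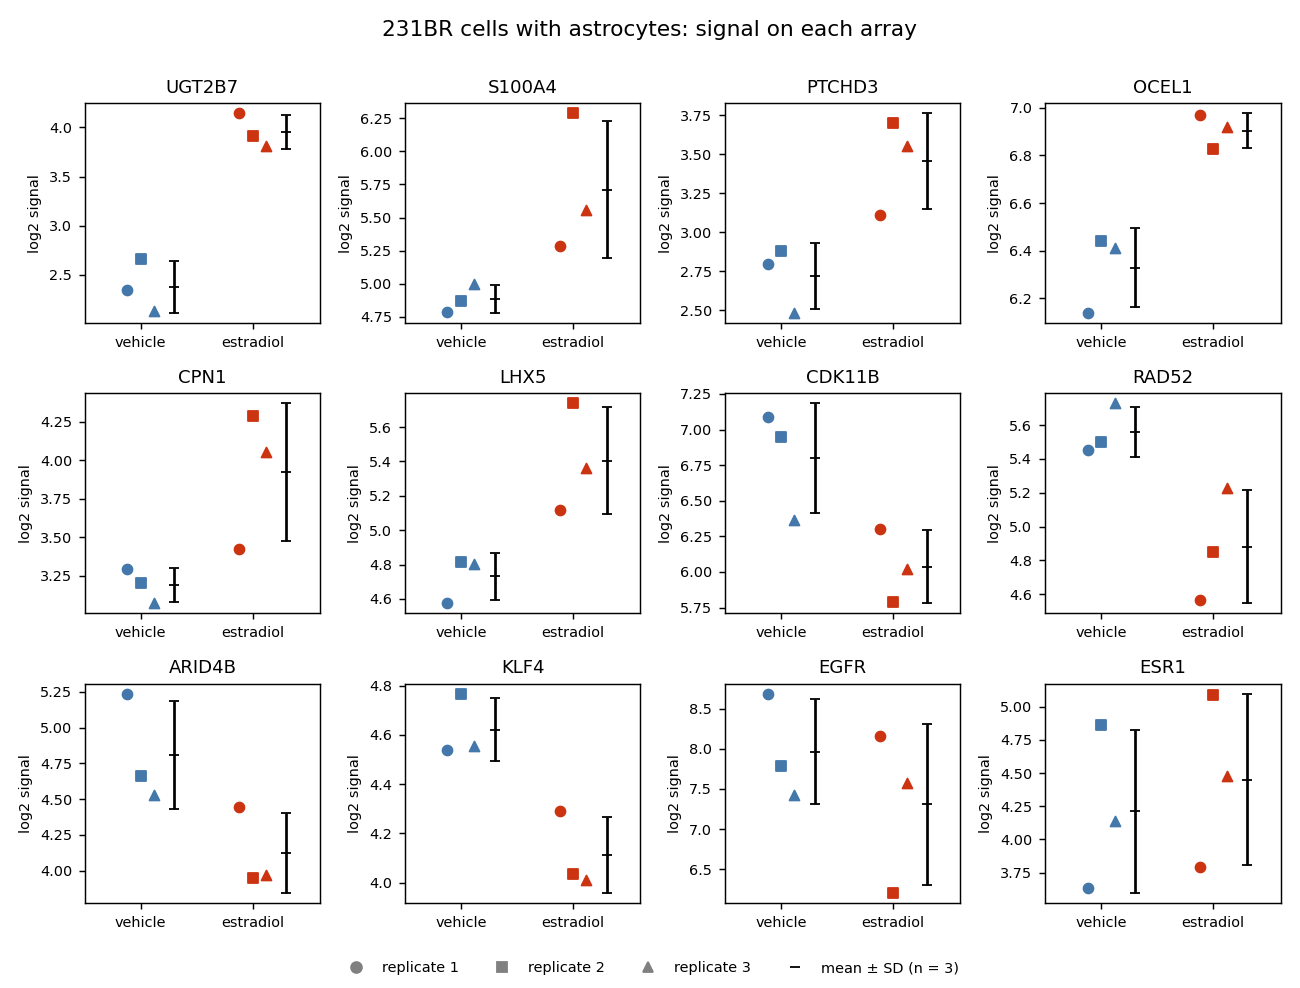
Log2 signal on each of the 6 arrays with astrocytes for 12 genes, with vehicle in blue and estradiol in red, symbols for the replicate number and bars for the mean ± SD (n = 3). The estradiol points of UGT2B7 lie between 3.81 and 4.14, all above the vehicle points at 2.13 to 2.66, whereas the groups of EGFR and ESR1 overlap.

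With the arrays taken as 3 pairs by replicate number, 0 genes were called as well and 161 (0.898%) had an unadjusted p under 0.05 in limma. ZNF502 differed by 0.79, 0.76 and 0.57 in replicates 1 to 3. KLRC4-KLRK1, a read-through locus of lymphocyte receptors, differed by 0.87, 1.08 and 0.72, and its groups were apart. FUNDC2, a mitochondrial outer membrane protein gene, differed by 0.87, 0.91 and 0.45 although its groups overlapped, because its vehicle arrays ranged from 3.59 to 5.46. In the negative direction BOD1L1, a gene of replication fork protection, differed by −0.93, −1.50 and −0.95, from a vehicle mean of 5.54 ± 0.54 (SD, n = 3) to 4.41 ± 0.64 (SD, n = 3). MFHAS1 differed by −0.85, −1.73 and −0.34, NFE2L3 by −0.51, −1.67 and −0.85 and KIF27 by −0.33, −1.88 and −0.88. Without replicate 2 MFHAS1 was at −0.59 and KIF27 at −0.60. Replicate 2 had the largest of the 3 differences in each of these 4 genes.

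The receptors that could read estradiol in the tumour cells differed by less than their spread. ESR1, the gene of estrogen receptor alpha, read 3.79, 5.09 and 4.48 with estradiol and 3.63, 4.86 and 4.13 with vehicle, a difference of 0.24 (SE 0.36). ESR2, the gene of estrogen receptor beta, differed by 0.15 (SE 0.25), GPER1 by −0.13 (SE 0.19) and PGR, the progesterone receptor gene and a textbook target of estrogen receptor alpha, by 0.23 (SE 0.30). The groups overlapped for all 4. ESR2 was at 0.037, PGR at 0.076 and GPER1 at −0.21 without replicate 2 of both groups. Without replicate 2 of the estradiol group ESR1 was at −0.077, ESR2 at −0.076 and PGR at −0.11, and without replicate 1 of the vehicle group ESR1 was at −0.047. NR3C2, the mineralocorticoid receptor gene, differed by 0.34 (SE 0.23) and NR3C1, the glucocorticoid receptor gene, by −0.18 (SE 0.39). NR3C1 was at −0.023 without replicate 2 of both groups, at 0.21 without replicate 2 of the estradiol group and at 0.13 without replicate 1 of the vehicle group. Of the 9 steroid receptor genes measured 0 were called, and their median of 0.15 stands beside 0.0033 over all genes, and became 0.04 without replicate 2 of both groups.

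Classical targets of estrogen receptor alpha gave no common direction. Of 29 measured, 0 were called, 18 were above 0 and 11 below, and the median was 0.10, or −0.02 without replicate 2 of both groups. Groups were apart for 1 member with estradiol above and for 1 with it below, against 1.37% and 0.82% of all genes. SERPINA1, the antitrypsin gene, was the member above, at 5.42, 5.62 and 5.45 against 5.18, 5.10 and 5.39. Its difference of 0.28 (SE 0.17) was 0.15 without replicate 2. ELOVL2, a fatty acid elongase gene, differed by 0.33 (SE 0.24), MYC by −0.30 (SE 0.24) and CCND1, the cyclin D1 gene, by −0.46 (SE 0.27). MYC was at −0.07 and CCND1 at −0.20 without replicate 2. Of the 18 genes measured for estradiol synthesis and inactivation, 12 were above 0. UGT2B7 was the only member with an unadjusted p under 0.05 in limma, against 0.792% of all genes. It was also the only member with its groups apart, against 2.19% of all genes. HSD17B1, the enzyme gene that makes estradiol from estrone, differed by 0.32 (SE 0.26), and by 0.096 without replicate 2 of both groups.

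EGFR is the main growth factor receptor of this line and was strongly expressed in both groups. Its log2 signals were 8.15, 6.20 and 7.57 with estradiol and 8.69, 7.78 and 7.42 with vehicle. The mean was 7.31 ± 1.00 (SD, n = 3) against 7.96 ± 0.65 (SD, n = 3), a difference of −0.66 (SE 0.44; 95% interval −1.62 to 0.31). Replicate 2 differed by −1.58 and replicate 3 by 0.15, and without replicate 2 of both groups the difference was −0.19. ERBB2, its partner receptor, differed by −0.35 (SE 0.21), and by −0.065 without replicate 2. Of the 6 genes of the receptor family and its feedback inhibitors, 5 were below 0 and 0 were called, with a median of −0.27 that became −0.11 without replicate 2.

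The list of EGF family ligands, which also holds the neuregulins and the sheddase genes ADAM10 and ADAM17, had no common direction. EREG, the epiregulin gene, read 8.06, 5.30 and 7.15 with estradiol and 8.29, 7.80 and 7.05 with vehicle. The difference of −0.88 (SE 0.55) was −0.06 without replicate 2 of both groups, so that array pair supplied nearly all of it. HBEGF, the heparin-binding ligand gene, behaved alike, with −0.54 (SE 0.37) on all arrays and 0.011 without replicate 2. NRG2, a neuregulin gene, had its groups apart at −0.20 (SE 0.17), or −0.11 without replicate 2. Of the 12 ligand and sheddase genes, 8 were below 0 and 0 were called, and the median of −0.07 became 0.03 without replicate 2.

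Genes that the ERK cascade switches on had a negative median. Of 26 measured, 22 were below 0, against 49.5% of all genes. Of these 26, 0 were called and 0 had groups apart, against 2.19% of all genes. The median was −0.22, or −0.13 without replicate 2 of both groups. By replicate the median was −0.20, −0.49 and 0.01. The median signal of this list in vehicle without astrocytes was 7.65. The bin of all genes nearest in level, at 7.64, had a median difference of −0.26, and 0.09, −0.93 and 0.05 by replicate. DUSP4, a phosphatase that limits ERK, read 8.03, 6.82 and 7.55 with estradiol and 8.32, 8.10 and 7.65 with vehicle, a difference of −0.56 (SE 0.29) that became −0.20 without replicate 2. DUSP7, a phosphatase of the same class, differed by −0.60 (SE 0.41) and FOSL2, an AP-1 subunit gene, by −0.37 (SE 0.25). DUSP7 was at −0.22 and FOSL2 at −0.07 without replicate 2 of both groups, and without replicate 2 of the estradiol group alone they were at −0.023 and −0.078.

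The S100 family of calcium-binding proteins did not share the difference of S100A4. Of 19 S100 genes measured, 11 were above 0 and 8 below, 0 were called, and the median was 0.03 beside 0.0033 over all genes, or 0.13 without replicate 2 of both groups. Apart from S100A4, groups were apart for S100G and S100Z, against 1.37% of all genes with estradiol above. S100G, the intestinal calbindin gene and a vitamin D target, read 2.96, 3.47 and 2.47 with estradiol and 2.40, 2.41 and 2.28 with vehicle, a difference of 0.61 (SE 0.23). Its signals were near the lowest on these arrays, and without replicate 2 the difference was 0.38. S100Z differed by 0.25 (SE 0.16), and S100A12, a gene of neutrophils, by 0.63 (SE 0.46) with groups that overlapped. S100A12 was at 0.29 without replicate 2 of both groups and at 0.027 without replicate 2 of the estradiol group alone.

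Of 36 genes of migration and invasion 29 were below 0, 0 were called, and the median of −0.25 became 0.07 without replicate 2 of both groups. Their median signal in vehicle without astrocytes was 8.25, and the bin of all genes nearest in level, at 8.18, had a median difference of −0.31. MMP9, the gelatinase B gene, went the other way, at 5.09, 6.27 and 4.92 with estradiol against 4.65, 4.75 and 4.64 with vehicle. Its groups were apart, with a difference of 0.75 (SE 0.30) that was 0.36 without replicate 2. TIMP3, an inhibitor of matrix proteases, read 9.49, 7.49 and 9.22 against 9.84, 9.67 and 9.20, and its difference of −0.83 (SE 0.42) was −0.16 without replicate 2. MYH9, the non-muscle myosin heavy chain gene to which S100A4 protein binds, differed by −0.36 (SE 0.25), by −0.14 without replicate 2 of both groups and by −0.054 without that of the estradiol group alone. Of 25 genes linked to brain metastasis 12 were above 0 and 13 below, with a median of −0.06 and 0 called. NTRK2, the receptor gene for the neurotrophin BDNF, was lower on every estradiol array, at 3.59, 3.74 and 3.53 against 4.02, 4.02 and 3.76. The difference was −0.32 (SE 0.18), and −0.34 without replicate 2. BDNF itself differed by −0.44 (SE 0.36), with overlapping groups, and by −0.19 without replicate 2. The median of the 6 neurotrophin and receptor genes was 0.06, and −0.12 without replicate 2.

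Inflammatory and interferon genes were among the few lists whose median was positive in every replicate. The median of 30 NF-kB inflammatory genes was 0.09, and 0.10, 0.15 and 0.12 in replicates 1 to 3, with 20 genes above 0, 0 called and 4 with estradiol entirely above vehicle, as for 1.37% of all genes. IL1A, the interleukin-1 alpha gene, read 5.01, 5.19 and 4.77 with estradiol against 4.64, 4.62 and 4.62 with vehicle, a difference of 0.37 (SE 0.21). BCL2A1, a survival gene of the BCL2 family, read 4.86, 4.80 and 4.70 against 4.68, 4.07 and 4.16, a difference of 0.48 (SE 0.24). The median of 28 type I interferon genes was 0.17, and 0.21, 0.05 and 0.11 by replicate, with 19 genes above 0. OAS1, an antiviral sensor, read 6.27, 6.13 and 6.42 against 6.02, 5.96 and 5.77, a difference of 0.36 (SE 0.17), and 0.46 without replicate 2. USP18, a brake on interferon signalling, differed by 0.76 (SE 0.42), nearly all of it from replicate 2, and by 0.13 without it. LIF, an IL6 family cytokine gene, differed by −0.38 (SE 0.25), or −0.66 without replicate 2, and the IL6 family and STAT3 list had a median of 0.09 over 19 genes.

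YAP target genes had the lowest median of the 39 lists examined. Of 25 measured, 24 were below 0 and 0 were called, with a median of −0.36 that was −0.26, −0.71 and −0.004 by replicate and −0.11 without replicate 2 of both groups. Their median signal in vehicle without astrocytes was 7.62. The bin of all genes nearest in level, at 7.64, had a median difference of −0.26, and 0.09, −0.93 and 0.05 by replicate. AMOTL1, which binds YAP and is also its target, was the member whose groups were apart, against 0.82% of all genes with estradiol below. It read 5.66, 5.15 and 5.51 with estradiol against 6.05, 5.79 and 5.67 with vehicle. The difference was −0.40 (SE 0.20). AMOTL2, its relative, differed by −0.47 (SE 0.21) and F3, the tissue factor gene, by −0.41 (SE 0.22), or −0.20 without replicate 2. In the list of the TGF-beta pathway 0 of 22 were called and the median was −0.03, and TGFB3, a ligand gene of weak signal, differed by 0.56 (SE 0.23), or 0.33 without replicate 2.

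Histone genes had the highest median, 0.19 over 46 genes, of which 41 were above 0 and 0 were called. By replicate it was 0.40, 0.42 and −0.21, so replicate 3 went the other way, and it was 0.11 without replicate 2 of both groups. H2AC21, the histone H2A member with the smallest p, read 10.33, 10.24 and 10.51 with estradiol against 9.68, 9.75 and 10.54 with vehicle, a difference of 0.37 (SE 0.23). Genes of G2 and mitosis had a median of −0.25 over 37 genes, 0.25, −1.16 and 0.05 by replicate, and 0.17 without replicate 2. MKI67, the proliferation marker, read 6.87, 5.57 and 5.97 against 7.99, 6.73 and 6.002, a difference of −0.77 (SE 0.45), and CDC25C, a phosphatase of mitotic entry, differed by 0.38 (SE 0.28). Of 38 genes of DNA replication and S phase 33 were below 0, and the median of −0.23 became 0.14 without replicate 2. The median signal of this list in vehicle without astrocytes was 7.33, and that of the G2 and mitosis list 8.27. The bins of all genes nearest in level, at 7.21 and 8.18, had median differences of −0.20 and −0.31. CHAF1A, a chromatin assembly factor gene, differed by −0.50 (SE 0.22), UHRF1 by −0.74 (SE 0.44) and the replication licensing gene CDT1 by 0.42 (SE 0.20). UHRF1 was at −0.35 and CDT1 at 0.22 without replicate 2 of both groups, and without that of the estradiol group alone UHRF1 was at −0.15.

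Housekeeping and stress lists showed the level pattern of replicate 2. The median of 28 proteasome genes was −0.25, and 0.35, −1.20 and 0.08 by replicate, or 0.19 without replicate 2. That of 45 oxidative phosphorylation genes was −0.10, and 0.40, −0.68 and −0.04, or 0.21 without it. The medians of the lists for unfolded protein response (−0.24), hypoxia (−0.22), cholesterol synthesis (−0.21), fatty acid synthesis (−0.22) and heat shock (−0.24) were negative as well, and each was between 0.09 and 0.14 without replicate 2 of both groups. HSPB8, a small heat shock protein gene of weak signal, had its groups apart, at 4.48, 5.54 and 4.22 against 3.91, 3.91 and 4.02, a difference of 0.80 (SE 0.30) that was 0.39 without replicate 2. HK2, the hexokinase gene of tumour glycolysis, differed by −0.35 (SE 0.23), or −0.23 without replicate 2. KRT7, an epithelial keratin gene, was lower on every estradiol array, with a difference of −0.39 (SE 0.21) that was −0.25 without replicate 2. Of 21 epithelial markers, groups were apart for 1 with estradiol below, KRT7, and for 1 with it above, against 0.82% and 1.37% of all genes. The median of the 21 was −0.08, or −0.03 without replicate 2.

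In all, 39 gene lists with 853 different measured genes were examined, and 0 of their members were called. Of the list medians 15 were above 0 and 24 below, from −0.36 to 0.19. In replicate 2 they ranged from −1.20 to 0.64, in replicate 1 from −0.30 to 0.40 and in replicate 3 from −0.25 to 0.21. Without replicate 2 of both groups 22 of the 39 medians changed sign, 17 of them from below to above 0, and the range narrowed to −0.18 to 0.21. In all 3 replicates 5 lists had a positive median and 2 a negative one.

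**Figure D3:**
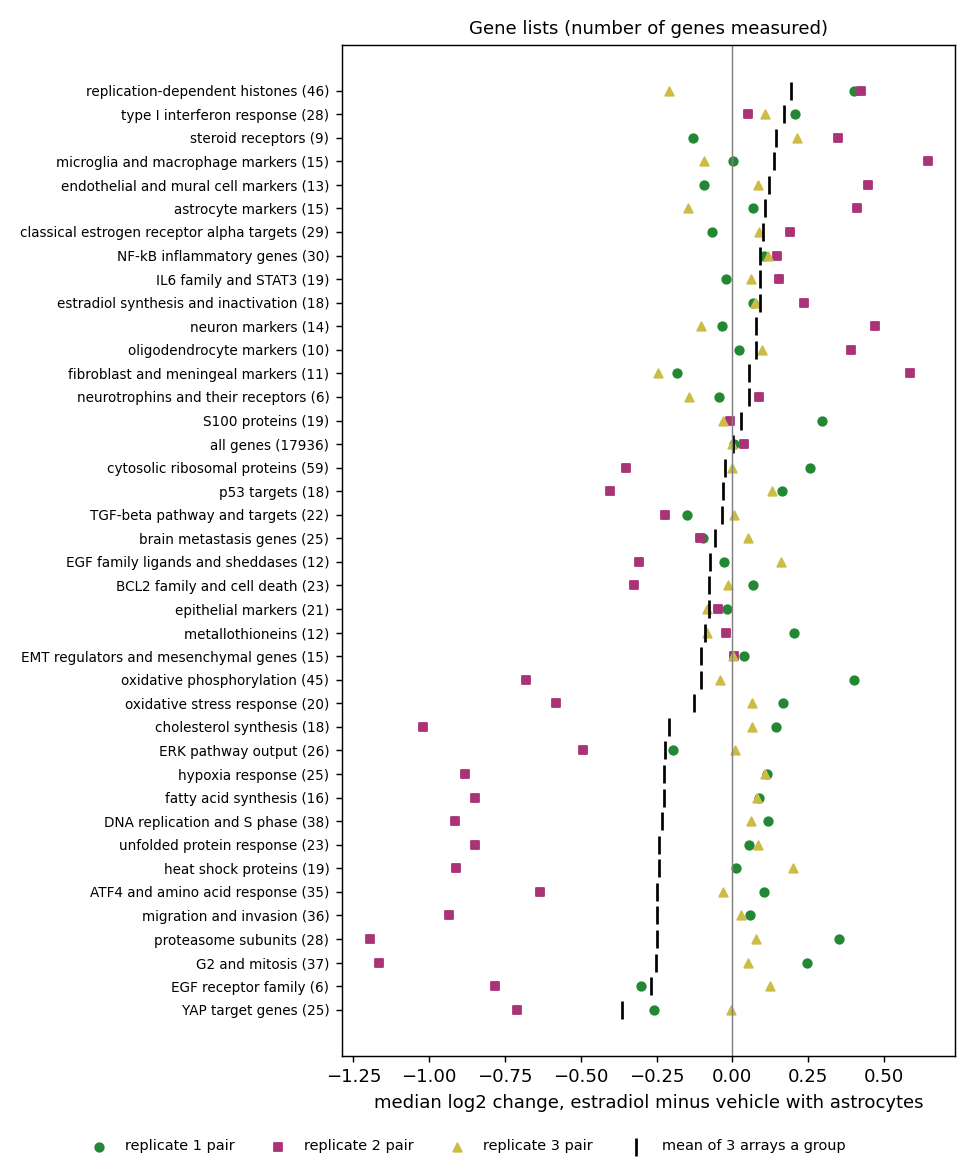
Median log2 difference, estradiol minus vehicle with astrocytes, of each gene list, with the number of genes measured in parentheses. Symbols give the median in each replicate pair and black ticks that of the mean of 3 arrays a group. The squares of replicate 2 reach from −1.20 to 0.64, and the other symbols stay between −0.30 and 0.40.

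RNA of mouse astrocytes or of other brain cells in the sorted fraction could bind some human probes, so markers of those cells were read on the same arrays. The mean log2 signal of 15 astrocyte markers was 4.93 to 4.99 with vehicle and 4.95 to 5.19 with estradiol, and in cells without astrocytes it was 4.70 to 4.93 with vehicle. For 15 microglia and macrophage markers the range was 4.03 to 4.33 with vehicle and 3.95 to 5.01 with estradiol, and 3.56 to 3.86 in vehicle without astrocytes. The highest value of each list was that of replicate 2 with estradiol. The same held for markers of neurons (4.82), oligodendrocytes (5.21), endothelial and mural cells (4.54) and fibroblasts and meninges (4.86). Weak genes as a whole were also higher with estradiol in replicate 2, by a median of 0.33 in the bin of lowest signal and 0.46 in the fifth bin. PTPRC, the pan-leukocyte gene, lay between 2.59 and 3.04 on all 6 arrays, near the lowest signals. The microglia marker C1QC read 3.94, 5.87 and 4.15 with estradiol against 3.98, 4.13 and 4.24 with vehicle. CX3CR1 read 3.47, 5.62 and 3.76 against 3.37, 3.95 and 4.08, and AIF1 3.06, 4.74 and 3.35 against 2.91, 3.24 and 3.42. GFAP, the astrocyte filament gene, lay above the array medians, at 5.43, 6.70 and 5.78 against 5.45, 6.25 and 5.93. AQP4, the astrocyte water channel gene, read 2.81, 3.93 and 3.25 with estradiol against 2.65, 3.10 and 2.91 with vehicle, a difference of 0.45 (SE 0.26) that was 0.25 without replicate 2 of both groups and 0.15 without that of the estradiol group alone. SOX9, a glial factor that breast cancer cells also express, differed by −0.58 (SE 0.25), or −0.32 without replicate 2. Of the 15 astrocyte markers 10 were above 0 and of the microglia markers 12, with 0 called in either list. The part of such RNA in any gene difference was not tested.

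Whether the estradiol difference itself depended on astrocytes was tested by the interaction of the 4 groups. Of 17936 genes 0 (0%) had an adjusted p under 0.05 in limma, and 31 (0.173%) had an unadjusted p under 0.05, 20 with a more positive difference with astrocytes (0.112%) and 11 with a more negative one (0.0613%). UGT2B7 read 2.89 ± 0.23 (SD, n = 3) with estradiol and 2.71 ± 0.23 (SD, n = 3) with vehicle in cells without astrocytes, a difference of 0.18 (SE 0.22). Its interaction was 1.40 (SE 0.31), with an unadjusted p of 0.00071 and an adjusted p of 1 in limma. S100A4 without astrocytes read 4.58 ± 0.19 (SD, n = 3) with estradiol and 4.77 ± 0.056 (SD, n = 3) with vehicle, a difference of −0.19 (SE 0.24). Its interaction was 1.02 (SE 0.35), with an unadjusted p of 0.012 and an adjusted p of 1. Of the 12 genes chosen for higher signal with estradiol and astrocytes, the groups without astrocytes overlapped for 10. Differences there lay between −0.27 and 0.18 for the 12 genes. In the remaining members, NHLRC1 (−0.23) and ZRSR2 (−0.27), estradiol lay entirely below vehicle without astrocytes. Of the 12 chosen for lower signal the groups overlapped for all 12, between −0.25 and 0.24. Over all genes 3.21% had groups apart without astrocytes, 1.27% with estradiol below. These 24 genes were chosen on the astrocyte arrays, which enter the interaction too, so their smaller differences elsewhere are a description. Across genes the differences with and without astrocytes correlated at r = −0.142.

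**Figure D4:**
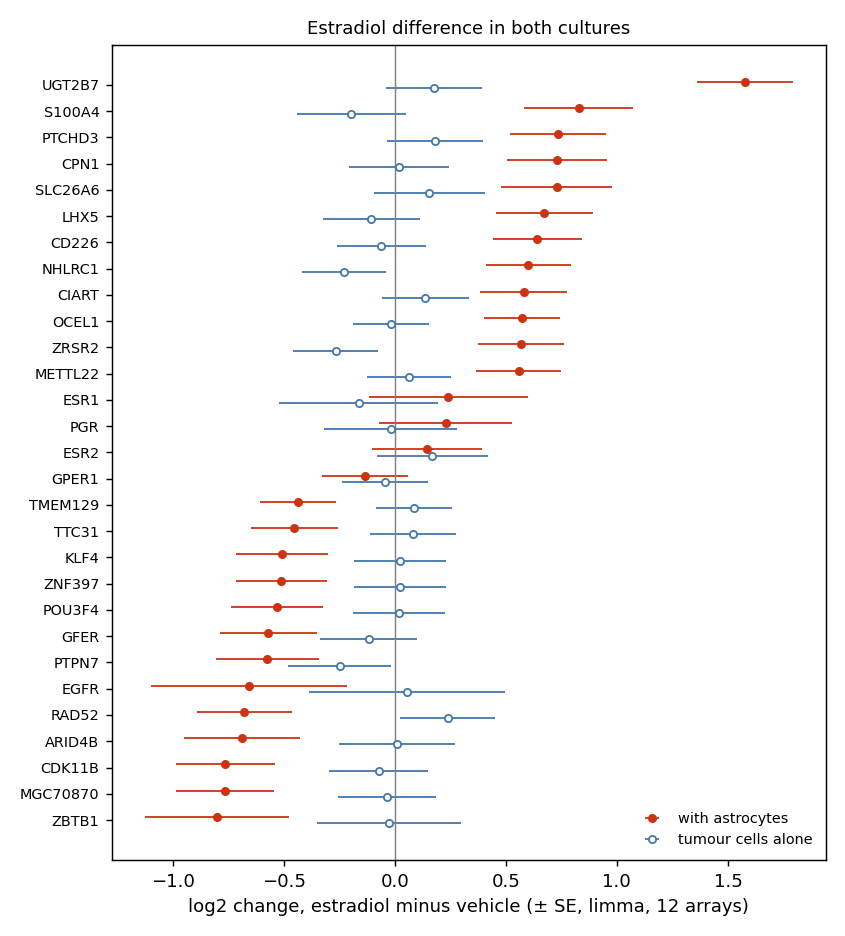
Log2 difference, estradiol minus vehicle, with astrocytes (filled red) and in tumour cells alone (open blue) for the genes with the smallest p in each direction and for EGFR and the estrogen and progesterone receptors, with bars of ± SE from limma over 12 arrays. UGT2B7 is at 1.58 with astrocytes and 0.18 alone, and S100A4 at 0.83 and −0.19.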

How the data were processed

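The authors deposited log2 signals per probe set, and per the submitters' processing notes RMA and Partek were used, with no version, role or order given. RMA corrects background, quantile-normalizes and summarises probes, yet the deposited arrays differ in SD. Of 33297 probe sets, 19181 had 1 gene symbol, 2055 had several and 12061 are unnamed here. For 914 genes with several probe sets, that with the highest mean over all 12 arrays was kept, which left 17936 genes, with no filter on low signal. Groups were fitted with limma 3.58.1 in R 4.3.3 as 4 means over 12 arrays (lmFit, contrasts.fit, eBayes), two-sided, with Benjamini-Hochberg adjustment over all genes and a threshold of 0.05. The pipeline was tested on simulated data. The simulated arrays varied independently, with no outlying array, no trend with level and no deviation shared by replicate number, so the test did not cover these features. Arrays have no read depth, and their number limits the precision.

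Same-number arrays of the astrocyte groups deviated together from their group means (r = 0.788, 0.756 and 0.214), so they were also fitted as pairs. This pairing comes from the values, since no label says what a number marks, and replicate 3 of estradiol correlated more with replicate 1 of vehicle (r = 0.397).

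The members, lists and rules were chosen with earlier results of these data known. Genes are named by rule: the 12 with the smallest p in each direction among genes whose groups were apart, leaving out small RNA, LOC, LINC, open reading frame, KIAA, FAM, pseudogene, olfactory receptor and keratin-associated names; the 6 with the smallest paired p in each direction; S100A4, EGFR, ESR1, ESR2, GPER1 and PGR; and up to 4 members of each list with the smallest p, or all of small lists. The text describes part of them. The alternatives were the replicate block, the array SD as covariate, both together, the 6 arrays alone, quantile normalization, median centring, genes above the median level, averaging the probe sets of a gene or keeping each 1, eBayes with trend and robust options, arrayWeights, other thresholds, and each array or replicate 2 of both astrocyte groups left out. The gene-by-gene method of arrayWeights was added after seeing the data. Promoters are from RefSeq, GRCh38.p14.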

Additional observations from a re-analysis of the deposited data

How the results depend on the processing

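In limma the count of called genes was 0 in each of the 3 comparisons with quantile normalization, median centring, genes above the median level only, either treatment of a gene's probe sets, trend and robust options, a threshold of 0.1, and with any 1 array left out (0 to 0). With astrocytes 142 genes had an unadjusted p under 0.05, without astrocytes 1, and for the interaction 31. With any 1 array left out the unadjusted count with astrocytes was 75 to 1610, the highest without replicate 1 of estradiol with astrocytes. Over the other alternatives it ran from 11, with the 6 arrays alone, to 4280, with arrayWeights, and was 518 with quantile normalization, 598 with the replicate block on 12 arrays and 1382 with the array SD as covariate. Fitting the 6 arrays with astrocytes on their own gave 0 genes. The replicate block on 6 arrays gave 0 genes for both the astrocyte cultures and the cells alone, the replicate block on 12 arrays gave 0 in all 3 comparisons, and the pairing changed no call. With the array SD as covariate 1 gene was called with astrocytes, and with the replicate block and the array SD together 1 gene, UGT2B7 both times (adjusted p in limma 0.0156 and 0.0016). Over all its alternatives the adjusted p of UGT2B7 ran from 0.00032 to 1.00. arrayWeights called 1197 genes with astrocytes (516 higher, 681 lower), 8 without and 648 for the interaction, but its iteration did not converge, and it gave replicate 3 of estradiol with astrocytes a weight of 150.5 and replicate 2 a weight of 0.022. Its gene-by-gene method called 1 gene with astrocytes, UGT2B7, 1 without, CFAP73, named here after its value was seen, and 0 for the interaction. HBEGF was at 0.19 with arrayWeights and 0.096 with its gene-by-gene method, and CCND1 was at 0.0047 with arrayWeights. With 1 array left out, HBEGF ranged from −0.84 to −0.066 (0.011 without both arrays of replicate 2), ESR1 ranged from −0.077 to 0.57, ESR2 from −0.076 to 0.35, PGR from −0.11 to 0.50 and NR3C1 from −0.58 to 0.21. Of the 78 genes followed over the alternatives, the other 72 kept their direction in every one that gave a value. Among them are the genes chosen with groups apart, whose direction cannot change when arrays are left out. S100A4 stayed between 0.53 and 1.18. Of the list medians 55 of 975 values moved by more than the spread between replicates. That spread is the SD of the medians of the 3 replicates and includes the wide values of replicate 2, so this count cannot show stability. Without replicate 2 of both groups 22 of the 39 medians changed sign. Genes below the median level have no value in the alternative that drops them.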
